A study of Homo sapiens with 10 samples.

Results

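Long intergenic noncoding RNAs with a LINC symbol were followed across 5 groups of human embryonic stem cells. The members were the gene rows of the deposited table whose name starts with LINC and then a digit or a hyphen, which gave 137 genes among 13808 gene rows and 14785 rows in all. Of these, 136 are annotated as long intergenic noncoding RNA (lincRNA) in GENCODE release 29, and 1, the readthrough gene LINC02210-CRHR1, is annotated as protein-coding. The genes lie on 23 chromosomes, with the most, 14, on chromosome 2.

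RNA was sequenced from H1 cells, an established human embryonic stem cell line whose genotype the labels give as wild type in every group. Cells were infected with virus carrying a short hairpin RNA (shRNA) against SMARCA4, MAFK, E2F6 or KDM1A, or against luciferase (shLUC), the control, and were selected with puromycin. Each of the 5 groups had 2 libraries, described as biological duplicates, so there were 10 libraries. The labels give 1 shRNA name per target, and the sequence of the hairpins, the time from infection to harvest and the number of hairpins per target were not given in the sources used here.

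LincRNAs are transcribed by RNA polymerase II from regions between protein-coding genes, and are capped, often spliced and polyadenylated, but lack a long open reading frame. Many are present at low levels and in few cell types, and their transcripts are commonly turned over by the nuclear exosome. In human pluripotent cells a part of them begins in long terminal repeats of the endogenous retrovirus HERVH. SMARCA4 is the ATPase of the BAF chromatin remodelling complex, MAFK is a small MAF transcription factor, E2F6 is a repressive E2F factor, and KDM1A is a histone lysine demethylase.

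The deposited values are normalized tag counts with no stated depth: the normalization gave all 10 libraries the same median of 594. The shRNA targets were lower in their own knockdowns to different degrees. SMARCA4 itself read 8086 and 8374 in shLUC against 1100 and 985 in its knockdown (adjusted p = 8.56e-05). KDM1A read 6344 and 5925 against 3290 and 1879 (adjusted p = 0.132), E2F6 read 491 and 553 against 336 and 304 (adjusted p = 0.774), and MAFK read 212 and 288 against 82 and 216 (adjusted p = 0.572), so these 3 targets did not pass the threshold and the MAFK libraries overlapped the control. The 12 pluripotency markers examined, among them POU5F1, SOX2 and NANOG, were all in the table. Of these, 0 passed the threshold of an adjusted p under 0.05 in any knockdown. Some came near it in SMARCA4 knockdown. SOX2 read 6408 and 6928 in shLUC against 4426 and 4748 (adjusted p = 0.0552). LIN28A read 41812 in both shLUC and 30774 in both shSMARCA4 libraries (adjusted p = 0.0773). TDGF1 read 10950 and 13159 in shLUC against 9056 and 7313 in shSMARCA4 (adjusted p = 0.115). NANOG was higher, at 2512 and 2639 against 4613 and 3699 (adjusted p = 0.284). The median log2 change of the 12 was -0.06 in that knockdown. POU5F1 read 35710 in both shLUC and both shMAFK libraries, and such repeated values can hide small differences. In bulk RNA, fewer cells of a type and less RNA per cell cannot be told apart.

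The LINC genes were low to moderate in level. Their mean over the 10 libraries ran from 30.4 to 3766 normalized tag counts, with a median of 120.9, against a median of 607.4 over all rows. A mean below 100 was found for 50 genes, a mean from 100 to 500 for 76, and a mean of at least 500 for 11. Per kilobase of annotated exon the median level was 58.9 for LINC genes, 99.3 for the other 562 lincRNA genes and 127 for the 13109 protein-coding genes.

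A pair of LINC genes stood far above the rest on the scale per kilobase of exon. LINC01618 had 5181 tag counts per kilobase and LINC00678 had 3010, and the next gene, LINC00843, had 788.7. LINC01618, on chromosome 4, read 5626 and 3583 in shLUC and from 1788 to 4572 in the knockdown libraries. LINC00678, on chromosome 11 and among the transcripts studied in embryonic stem cells, read 3740 and 3874 in shLUC and from 2678 to 3756 in the others. The 2 shLUC values of LINC01618 were thus far apart, whereas those of LINC00678 were close together.

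The spread between replicates was wider for LINC genes than for all rows, but not than for other lincRNA genes. The median SD between replicates on the log2 scale was 0.291 for LINC genes and 0.222 for all rows. It was 0.303 for the other lincRNA genes, whose median level was 118.8. As a root mean square over genes, which weights the most variable ones, it was 0.557 for LINC genes and 0.275 for all rows in shLUC. The SMARCA4 knockdown gave 0.752 and 0.335. The MAFK knockdown gave 0.782 and 0.264, the E2F6 knockdown 0.541 and 0.308, and the KDM1A knockdown 0.97 and 0.53. At least 1 library was below 10 for 15 LINC genes, or 10.9%, against 1.07% of all rows. In 12 of these 15, the replicates of some group stood below 10 and above 40. LINC00992 read 76 and 2 in shLUC, 1 and 65 in shSMARCA4, and 81 and 1 in shMAFK, so its replicates differed more than its groups. LINC01625 likewise read 1 and 40 in shLUC and 36 and 1 in shE2F6.

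**Figure D1:**
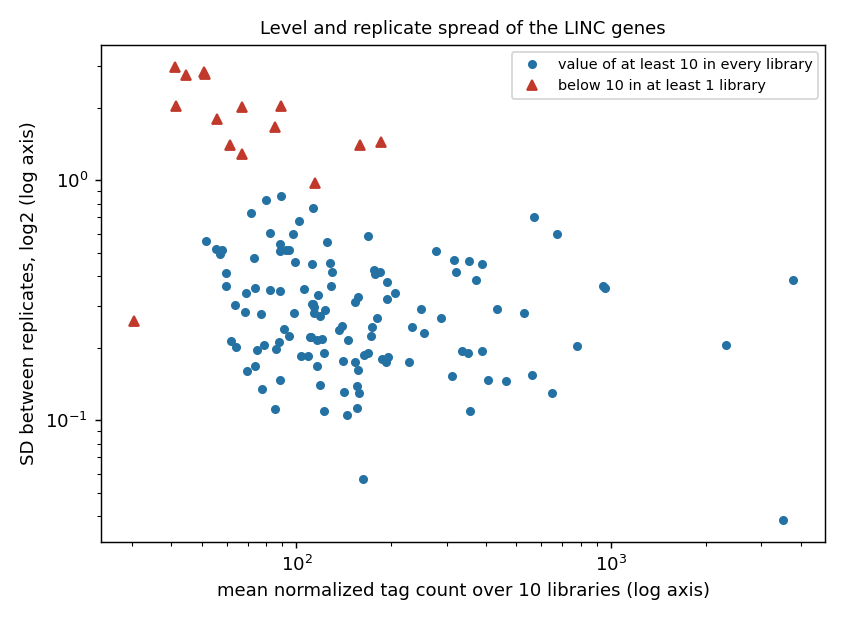
Each point is 1 of the 137 LINC genes: the x axis is its mean normalized tag count over 10 libraries (log axis) and the y axis its SD between replicates on the log2 scale, pooled over groups (log axis). Triangles mark the 15 genes with a library below 10, which with 1 exception lie at the top of the plot.

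Other LINC genes were steady across all groups. LINC00997 stayed between 74 and 95 and LINC01694 between 116 and 158 in the 10 libraries. LINC01089 stayed between 543 and 750, LINC01122 between 92 and 126, and LINC00630 between 141 and 184. These 5 had the smallest SD over the 10 libraries.

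SMARCA4 knockdown was the comparison in which LINC genes passed the threshold. Relative to shLUC, 7 LINC genes fell and 2 rose, 9 of 137 or 6.57%, beside a background of 4.18% of all 14785 rows called (limma, Benjamini-Hochberg over all rows). By direction, 5.11% of LINC genes fell against 2.51% of all rows, and 1.46% rose against 1.67%. The genes that fell were LINC00698, LINC00882, LINC02188, LINC02570, LINC02473, LINC00491 and LINC02387, and those that rose were LINC01500 and LINC00467. Fewer LINC genes passed when a library of shLUC, shSMARCA4, shMAFK or shE2F6 was left out, and more without shKDM1A replicate 1 or replicate 2. The share of all rows called moved the same way. A fit with a library left out also has fewer residual degrees of freedom. These counts therefore cannot show whether the 9 calls rest on particular libraries. With single libraries left out, the log2 changes of the 9 genes kept their direction. Their range was narrowest for LINC01500, from 1.92 to 2.01, and widest for LINC02473, from -5.28 to -2.32.

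**Figure D2:**
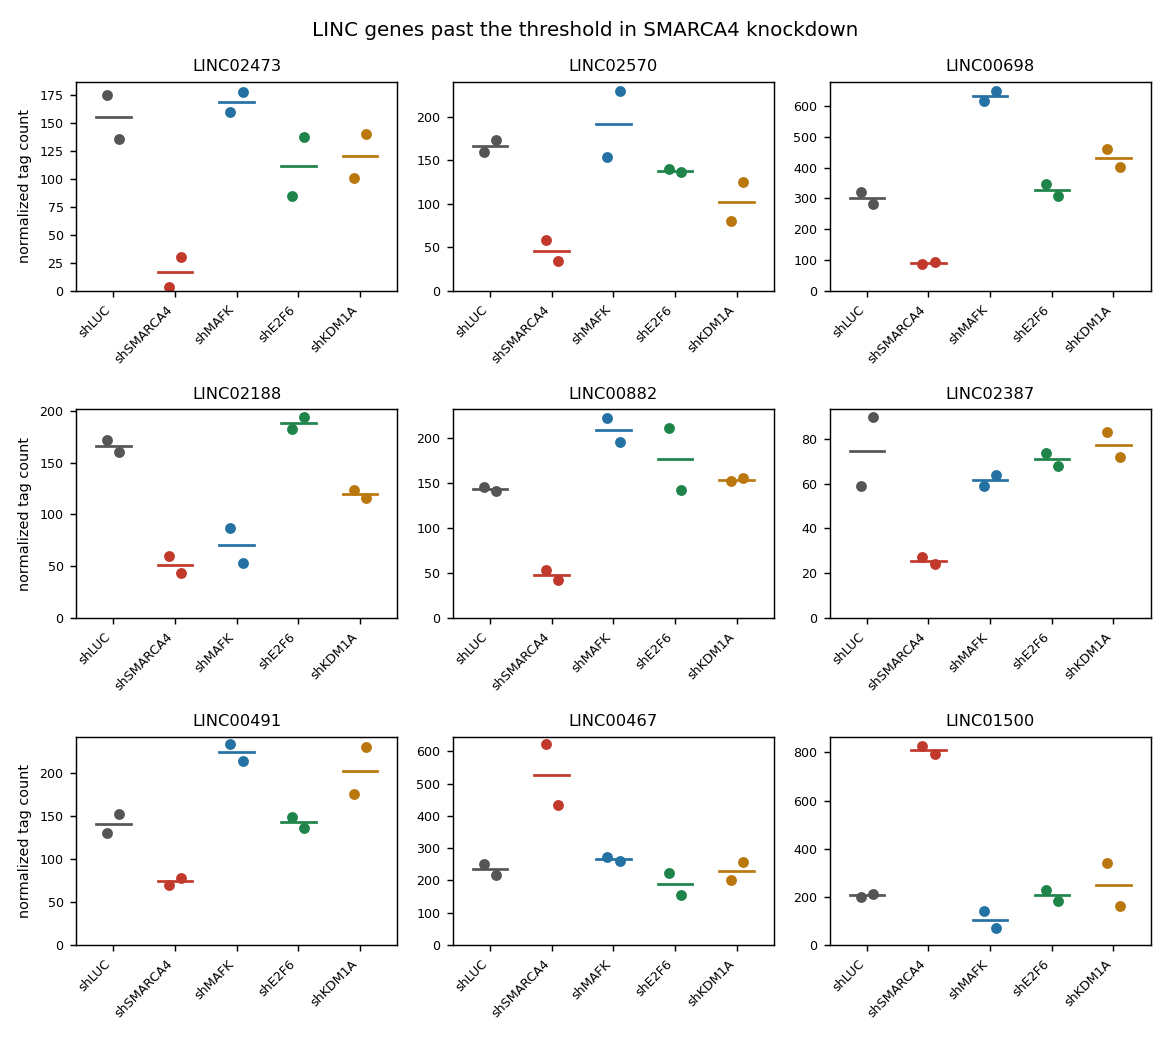
Normalized tag counts (y axis, from 0) of the 9 LINC genes past the threshold in SMARCA4 knockdown, by group (x axis); points are single libraries and lines the mean of 2. In 7 panels both shSMARCA4 libraries lie below both shLUC libraries, and for LINC00467 and LINC01500 both lie above.

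LINC00698 gave the firmest change. This gene of chr3:62950430-63125062 (GRCh38, plus strand, exonic length 2745 bases) overlaps no other annotated gene. It read 322 and 282 in shLUC, 85 and 92 in the SMARCA4 and 618 and 650 in the MAFK knockdown, 346 and 309 in the E2F6 and 460 and 402 in the KDM1A knockdown. The SMARCA4 libraries were the lowest and the MAFK libraries the highest, and neither pair overlapped the control. In SMARCA4 knockdown it fell to 29.3% of the shLUC mean, a log2 change of -1.76 (SE 0.16, adjusted p = 0.00106), and it passed under all 20 alternative settings tried, with adjusted p from 0.000112 to 0.0159.

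LINC00882 lies at chr3:106836811-107240641 on the minus strand. It read 146 and 141 in shLUC and 53 and 42 in shSMARCA4, and between 142 and 223 in the other 6 libraries. Only the SMARCA4 libraries were below the control, at a log2 change of -1.58 (SE 0.24, adjusted p = 0.00945).

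LINC02188, at chr16:86710122-86742083, read 172 and 160 in shLUC, 60 and 43 in shSMARCA4, and 87 and 53 in shMAFK, with 116 to 194 in the remaining 4 libraries. The SMARCA4 and MAFK libraries were the lowest, and the KDM1A libraries, at 124 and 116, were also below the control. The log2 change was -1.69 in SMARCA4 knockdown (SE 0.29, adjusted p = 0.0139) and -1.28 in MAFK knockdown (adjusted p = 0.177). LINC02189 overlaps it on the other strand.

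LINC02570, at chr6:30839526-30848159, read 160 and 173 in shLUC and 58 and 34 in shSMARCA4, and from 80 to 230 elsewhere. Its log2 change in SMARCA4 knockdown was -1.88 (SE 0.33, adjusted p = 0.0163). LINC02473, at chr4:24659856-24671568, read 175 and 136 against 3 and 30, or 10.6% of the shLUC mean, the lowest share among the 7 genes that fell. Its log2 change of -3.80 (SE 0.76, adjusted p = 0.027) depended on which SMARCA4 library was used, and ran from -5.28 to -2.32 with single libraries left out.

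LINC00491, at chr5:102609156-102671559, read 130 and 152 in shLUC, 70 and 78 in shSMARCA4, and 234 and 214 in shMAFK. The order of the 3 groups was the same as for LINC00698, with SMARCA4 lowest and MAFK highest. Its log2 change in SMARCA4 knockdown was -0.92 (SE 0.21, adjusted p = 0.0447). LINC02387 read 59 and 90 in shLUC and 27 and 24 in shSMARCA4, a log2 change of -1.48 (SE 0.34, adjusted p = 0.0451). Both calls lay close to the threshold, and LINC00491 passed in 9 of 20 alternatives and LINC02387 in 7 of 19.

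The 2 genes that rose were LINC01500 and LINC00467. LINC01500, at chr14:58646631-59017532, read 200 and 213 in shLUC and 828 and 793 in shSMARCA4, and from 72 to 341 in the other 6 libraries. The SMARCA4 libraries were far above all others, 3.92-fold the shLUC mean, at a log2 change of 1.97 (SE 0.37, adjusted p = 0.0222). LINC00467, at chr1:211382803-211435333, read 252 and 216 in shLUC and 622 and 432 in shSMARCA4, a log2 change of 1.15 (SE 0.24, adjusted p = 0.034). No other library of LINC00467 exceeded 273.

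With the 9 genes included, 27 LINC genes had an unadjusted p under 0.05, or 19.7%, against 16.3% of all rows. Of these, 20 were lower (14.6%, against 8.53% of all rows) and 7 higher (5.11%, against 7.78%). A change of at least 2-fold was seen in 27 as well, or 19.7% against 5.76%, with 19 lower (13.9% against 3.54%) and 8 higher (5.84% against 2.22%). Of the other 562 lincRNA genes, which were close to the LINC genes in level and replicate spread, 12.3% changed at least 2-fold. An unadjusted p under 0.05 was found for 13.7% of them. The spread between replicates of LINC genes was also wider than that of all rows, and its part in these shares was not tested. The shSMARCA4 and shLUC libraries did not overlap for 84 genes, or 61.3%, against 51.0% of all rows. The median log2 change was -0.06 over the LINC genes and 0.01 over all rows. Some genes that did not pass the threshold are given by their values. LINC02334 read 138 and 82 in shLUC and 24 and 21 in shSMARCA4 (log2 change -2.19, adjusted p = 0.0679). LINC00857 read 49 and 30 against 94 and 104 (log2 change 1.34, adjusted p = 0.122), and passed in 0 of 19 alternatives. LINC01967 read 74 and 48 against 19 and 0 (adjusted p = 0.112) and LINC02397 read 119 and 89 against 1 and 1 (adjusted p = 0.262), with values of 1 or 2 for LINC02397 in 1 MAFK, 1 E2F6 and 1 KDM1A library too. They passed in 2 and 1 of 19 alternatives.

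Markers of other cell types moved in the same SMARCA4 libraries, and their part in the LINC changes was not tested. No row of the table had a mean below 10, so markers low in every library are absent. FOXA2, at 0 to 4 in the other groups, may thus be listed only because of its shSMARCA4 values. MIXL1 read 9 to 34 and EOMES 0 to 34 in the other groups, near that limit. The rise of these markers therefore says nothing of the markers that are absent. Of the 5 ectoderm markers 1 was in the table, ZIC1, and it rose, from 95 and 149 in shLUC to 462 and 1004 (adjusted p = 0.0147). The summed mesoderm markers in the table (MIXL1 and EOMES, 2 of 5) read 34 and 48 in shLUC, 4239 and 856 in shSMARCA4, and 10 to 58 in the other libraries, and 1, MIXL1, passed the threshold (adjusted p = 0.0365). Replicate 1 of shSMARCA4 was higher than replicate 2 for the mesoderm genes, and lower for ZIC1. The 1 endoderm marker of 5 in the table, FOXA2, read 4 and 2 in shLUC and 792 and 170 in shSMARCA4 (adjusted p = 0.359), and from 0 to 4 elsewhere. The 1 trophoblast marker of 4, KRT7, fell from 218 and 296 to 30 and 44 (adjusted p = 0.00463). The summed fibroblast markers, 3 of 5 in the table, read 14147 and 15544 in shLUC and 5588 and 6737 in shSMARCA4. COL1A1 and THY1 fell, THY1 from 8852 and 9056 to 2794 and 3314. The third, COL1A2, read 2740 and 3262 against 2483 and 2794 (adjusted p = 0.927).

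**Figure D3:**
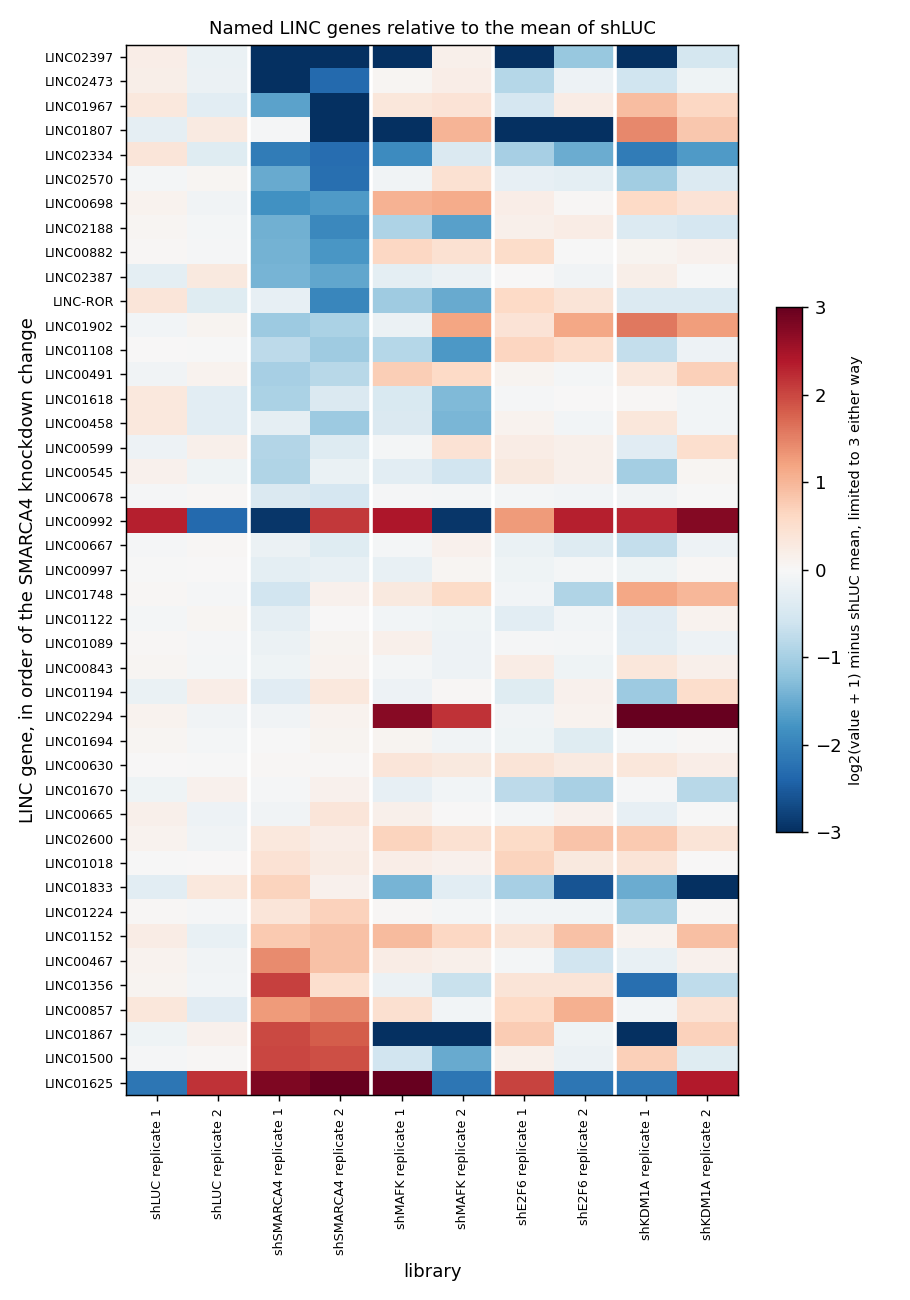
Each row is 1 of 43 LINC genes chosen by rule and each column a library; colour is log2(value + 1) minus the mean of the 2 shLUC libraries, limited to 3 either way (blue lower, red higher). Genes are in order of their SMARCA4 change; the uneven colours within replicate pairs of LINC00992, LINC01625 and LINC01807 show their replicate spread.

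In MAFK knockdown, 0 LINC genes passed the threshold in limma, beside 0.0135% of all rows called. At an unadjusted p under 0.05 there were 19 LINC genes, or 13.9%, against 8.77% of all rows. LINC00698, whose values stand above, came nearest, at a log2 change of 1.07 (SE 0.16, adjusted p = 0.106). LINC01108, a transcript studied in embryonic stem cells, read 246 and 245 in shLUC and 135 and 74 in shMAFK (log2 change -1.29, adjusted p = 0.177). LINC-ROR, described as a regulator of reprogramming to pluripotency, read 128 and 77 against 47 and 34 (log2 change -1.29, adjusted p = 0.517). Neither gene passed the threshold. LINC01152 read 68 and 50 against 114 and 90 (log2 change 0.79, adjusted p = 0.565), and LINC00491 had a log2 change of 0.67 (adjusted p = 0.354). With 1 variance weight per group, 6 LINC genes passed: LINC00491, LINC00698, LINC01108, LINC01844, LINC01867 and LINC02188. They are 4.38% of LINC genes, against 3.29% of all rows called with these weights. LINC00698 and LINC01867 passed when either shKDM1A replicate or both were left out. LINC01867 read 44 and 53 in shLUC and 0 and 0 in shMAFK, and was also listed at 0 in shKDM1A replicate 1.

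In E2F6 knockdown, 0 LINC genes passed the threshold in limma, and the background was 0.0% of all rows called. The count was also 0 in each of 22 alternatives. Those that took a subset of the main calls, or dropped the filter on the mean, which removed 0 rows, could give no other count. At an unadjusted p under 0.05 there were 8 LINC genes, or 5.84%, against 5.09% of all rows. LINC01670 read 122 and 148 in shLUC and 77 and 68 in shE2F6 (log2 change -0.88, adjusted p = 0.885). LINC02600 read 81 and 70 against 112 and 137 (log2 change 0.71, adjusted p = 0.901), and LINC01018 read 188 and 194 against 303 and 236 (log2 change 0.48, adjusted p = 0.956). None of these 3 passed the threshold. LINC01807 read 44 and 65 in shLUC and was listed at 0 in both shE2F6 libraries, and also in 1 shSMARCA4 and 1 shMAFK library (adjusted p = 0.956 in E2F6 knockdown).

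In KDM1A knockdown, 0 LINC genes passed the threshold in limma, beside 0.0271% of all rows called. At an unadjusted p under 0.05 there were 14 LINC genes, or 10.2%, against 11.5% of all rows. The 2 shKDM1A libraries differed most from each other, and without shKDM1A replicate 2 the count was 27, or 19.7%, against 21.9% of all rows called in the same fit. The group then holds 1 library, which is assumed to vary like the other groups. LINC02294 read 6 and 5 in shLUC, 116 and 85 in shKDM1A, and 42 and 28 in shMAFK. The other 4 libraries read 5 or 6. No row of the table had a mean below 10, so this gene may be listed only because of its shKDM1A and shMAFK values. The contrast of LINC02294 with the other groups is therefore no separate result. Its log2 change in KDM1A knockdown was 3.95 (SE 0.98, adjusted p = 0.255), and it passed in 1 of 18 alternatives, the fit without a trend of the variance with the mean. LINC01902 read 55 and 62 in shLUC and 178 and 140 in shKDM1A (log2 change 1.42, adjusted p = 0.345). The shKDM1A replicates of this gene were both its highest values. LINC01748 read 62 and 59 against 137 and 122 (log2 change 1.08, adjusted p = 0.375).

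Lower values in shKDM1A were seen for LINC01833, LINC01356 and LINC02334. LINC01833, which lies head to head with SIX3, a homeobox gene of forebrain and eye development, read 92 and 141 in shLUC and 40 and 13 in shKDM1A. Its log2 change was -2.26 (SE 0.68, adjusted p = 0.334). In E2F6 knockdown the same gene read 57 and 18 (log2 change -1.79, adjusted p = 0.939). LINC02334 read 24 and 32 in shKDM1A (log2 change -1.90, adjusted p = 0.326) and was below its shLUC values of 138 and 82 in all 8 knockdown libraries. The 4 knockdowns share the 2 shLUC libraries, so their changes are not independent.

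Whether the knockdowns differed from each other was asked with an F-test. It passed for 12 LINC genes, or 8.76%, beside 6.64% of all rows. Of these, 8 were among the 9 genes called in SMARCA4 knockdown, all but LINC02387 (adjusted p = 0.0571). The other 4 were LINC01108 (adjusted p = 0.0227), LINC01876 (0.0431), LINC01902 (0.0435) and LINC01356 (0.0492). The smallest adjusted p was that of LINC00698, 0.000299, followed by LINC00882, 0.00432, LINC00491, 0.00837, LINC01500, 0.00914, and LINC02188, 0.0166. LINC01108 read 382 and 347 in shE2F6, 142 and 116 in shSMARCA4, 135 and 74 in shMAFK, and 150 and 220 in shKDM1A. Its E2F6 libraries were the highest and its MAFK and SMARCA4 libraries the lowest. LINC01876 read 101 and 116 in shE2F6, 142 and 134 in shSMARCA4, 173 and 202 in shMAFK, and 220 and 204 in shKDM1A, with the KDM1A libraries highest. The count of 12, and the share of all rows called, fell when a library of shLUC, shSMARCA4, shMAFK or shE2F6 was left out. Both rose without shKDM1A replicate 1 or replicate 2. The shLUC libraries do not enter the means compared in this test, so leaving 1 out acts only through the estimated spread. LINC00698 and LINC00882 passed in each of 20 alternatives.

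Of a list of 20 LINC genes with described roles, 5 were in the table, and these 5 are transcripts studied in embryonic stem cells: LINC-ROR, LINC00458, LINC01108, LINC00678 and LINC00545. None of the 5 passed the threshold in any single knockdown. LINC00678 had the narrowest spread: 3740 and 3874 in shLUC, 2796 and 2678 in shSMARCA4, and 3552 to 3756 in the other 6 libraries. Its SMARCA4 libraries alone were below all others, at a log2 change of -0.48 (SE 0.13, adjusted p = 0.0922). It passed in 4 of 20 alternatives, with group weights (adjusted p = 0.0274) and without 1 or both shKDM1A libraries. LINC00458, which has been described as a partner of SOX2, read 505 and 324 in shLUC, 336 and 191 in shSMARCA4 and 298 and 157 in shMAFK, so its SMARCA4 libraries overlapped the control and its MAFK libraries did not. LINC-ROR read 83 and 25 in shSMARCA4, overlapping its 128 and 77 in shLUC. LINC00545 read 220 and 184 in shLUC, 108 and 176 in shSMARCA4, 99 and 208 in shKDM1A and 135 to 248 elsewhere.

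LINC01356, which passed the F-test but in no single knockdown, read 483 and 428 in shLUC and 1898 and 649 in shSMARCA4, both higher (log2 change 1.29, SE 0.54, adjusted p = 0.272), and 94 and 268 in shKDM1A, both lower (log2 change -1.51, adjusted p = 0.388). LINC-ROR had a log2 change of -1.10 (SE 0.52, adjusted p = 0.338), LINC00458 of -0.67 (SE 0.37, adjusted p = 0.43) and LINC00678 of -0.48, none past the threshold. The size for LINC01356 rested on shSMARCA4 replicate 1: without it the log2 change was 0.51. The repeat rows LTR7 and HERVH-int, the terminal repeat and the internal part of HERVH, gave 0 calls in any knockdown, and HERVH-int sat at the highest value of the table, 148866, in all 10 libraries, where no difference can be read.

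**Figure D4:**
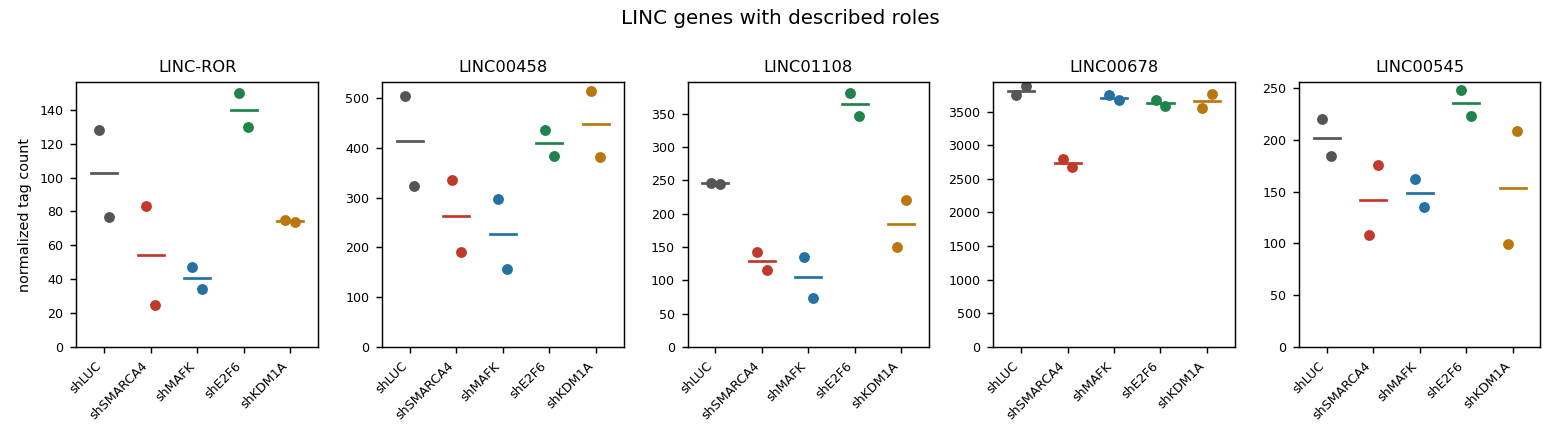
Normalized tag counts (y axis, from 0) by group (x axis) for the 5 LINC genes with described roles in the table; points are libraries and lines the mean of 2. LINC00678 is lowest in shSMARCA4, with 2796 and 2678, whereas LINC01108 is highest in shE2F6, with 382 and 347.

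Position relative to coding genes was examined next. For 71 LINC genes the nearest coding gene of the table had its annotated start within 100 kb, and 31 of these pairs were divergent. Across the 71 pairs Spearman's correlation of the 2 log2 changes was 0.289 in SMARCA4, 0.0584 in MAFK, 0.247 in E2F6 and 0.302 in KDM1A knockdown. These are descriptions across pairs that share the same libraries and controls, and the pairs are not independent replicates. Without shKDM1A replicate 1 the KDM1A value was 0.0376, without shLUC replicate 2 the E2F6 value was 0.102, and without shMAFK replicate 2 the MAFK value was 0.168. In SMARCA4 knockdown 9 of the 70 distinct neighbours passed the threshold, or 12.9%, against 4.52% of protein-coding genes, and in 2 pairs both genes did. The count of 9 became 3 without shLUC replicate 1 or shSMARCA4 replicate 2, and 2 without shLUC replicate 2 or shSMARCA4 replicate 1, with 0.648% to 1.74% of protein-coding genes called in those fits. The difference in share was not tested.

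The 2 pairs ran in different ways. LINC01500 and DACT1, which encodes a modulator of Wnt signalling, start 12.7 kb apart on the same strand and overlap, and how shared reads were assigned is not stated. DACT1 read 745 and 599 in shLUC and 3780 and 2757 in shSMARCA4, so both genes rose (log2 change of DACT1 2.27, adjusted p = 0.0231). LINC00491 and PAM, which encodes a peptide-amidating enzyme, start 82.4 kb apart and are divergent. PAM read 1275 and 1173 in shLUC and 1983 and 2185 in shSMARCA4 (log2 change 0.77, adjusted p = 0.0222), so it rose where LINC00491 fell. The neighbours of the other genes called did not pass: CADPS beside LINC00698 read 304 and 224 against 228 and 280, and DHX15 beside LINC02473 read 8852 and 7784 against 8374 and 7440. DDR1, a collagen receptor kinase beside LINC02570, read 7682 and 7919 against 4094 and 3565 (adjusted p = 0.0561).

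Some pairs outside the called genes are named because of their values. SIX3, 2.70 kb from LINC01833, read 62 and 211 in shLUC, 27 and 26 in shE2F6 and 34 and 20 in shKDM1A, so both members of the pair were low in the E2F6 and KDM1A libraries (log2 change of SIX3 -2.09 in KDM1A knockdown, adjusted p = 0.326). TRPC4, a cation channel gene 64.1 kb from LINC02334, fell from 347 and 289 in shLUC to 94 and 82 in shSMARCA4 (adjusted p = 0.00325), where LINC02334 read 24 and 21. EOMES, a T-box factor of mesendoderm 74.8 kb from LINC01980, read 14 and 34 in shLUC and 2430 and 724 in shSMARCA4, while LINC01980 read 123 and 118 against 68 and 98. High EOMES values thus stood beside slightly lower values of its LINC neighbour (log2 change -0.56, adjusted p = 0.426).

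**Figure D5:**
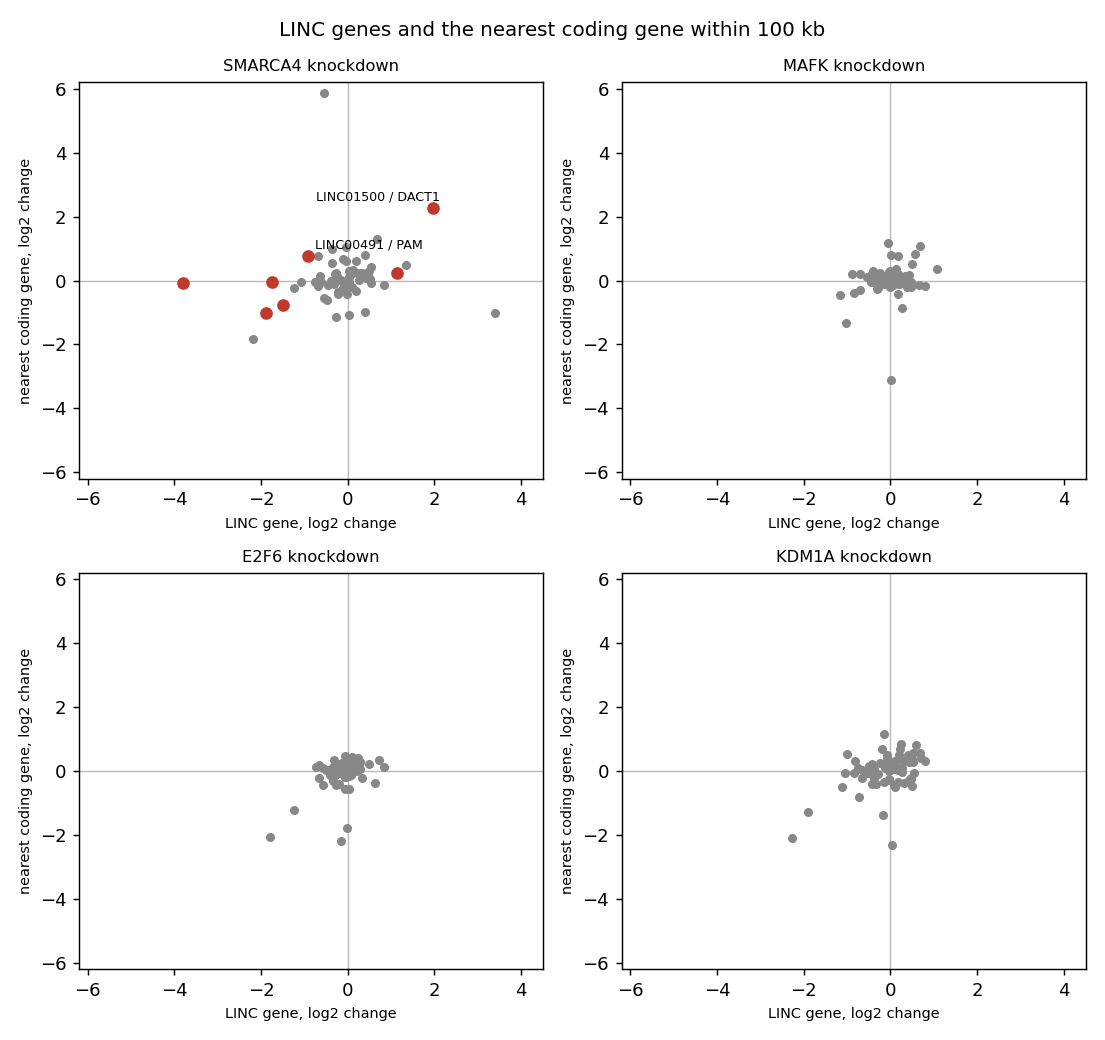
Log2 change of a LINC gene (x axis) and of its nearest coding gene (y axis) for 71 pairs with starts within 100 kb, 1 panel per knockdown. Red points are LINC genes past the threshold, seen in the SMARCA4 panel; the labelled pairs, LINC01500 with DACT1 and LINC00491 with PAM, are those in which both genes passed.

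Promoters of 300 bases, from 250 before to 50 after the RefSeq start (GRCh38.p14), were matched to 89 of the LINC genes, and 65 of these had their RefSeq start within 1 kb of the GENCODE start. The shares below are over those 65, a limit chosen after seeing the data. Their median number of CG dinucleotides was 12, against 14 in all 27305 promoters and 26 in promoters of coding genes of the table; over all 89 matches it was 7. The octamer part ATGCAAA was in 1.54% of the 65 LINC promoters and 4.51% of all, the TATA box TATAAA in 10.8% and 12%, the E2F site TTCCCGC in 9.23% and 6.56%, and the partial MAF recognition element TGCTGA in 21.5% and 17.4%, each searched on both strands. These shares were not tested for a difference. Of the genes that fell in SMARCA4 knockdown, 3 had a RefSeq start within 1 kb of the GENCODE start, and their promoters are shown because the genes moved together while their base composition differed. Capitals mark CG dinucleotides; they lie at chr3:107240589-107240888 (LINC00882, minus strand), chr6:30848110-30848409 (LINC02570, minus strand) and chr4:24659650-24659949 (LINC02473, plus strand).
LINC00882: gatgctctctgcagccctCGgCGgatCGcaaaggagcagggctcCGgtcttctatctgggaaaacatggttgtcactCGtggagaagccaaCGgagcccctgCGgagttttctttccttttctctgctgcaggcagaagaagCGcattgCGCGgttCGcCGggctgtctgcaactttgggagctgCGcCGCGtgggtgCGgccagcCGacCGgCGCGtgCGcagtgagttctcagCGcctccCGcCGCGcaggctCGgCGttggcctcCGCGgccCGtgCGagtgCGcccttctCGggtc
LINC02570: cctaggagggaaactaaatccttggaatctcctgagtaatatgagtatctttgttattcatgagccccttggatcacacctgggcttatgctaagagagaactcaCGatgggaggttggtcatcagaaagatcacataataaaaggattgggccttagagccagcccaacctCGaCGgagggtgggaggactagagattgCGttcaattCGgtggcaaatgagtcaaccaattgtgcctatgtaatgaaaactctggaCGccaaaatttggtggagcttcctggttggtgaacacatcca
LINC02473: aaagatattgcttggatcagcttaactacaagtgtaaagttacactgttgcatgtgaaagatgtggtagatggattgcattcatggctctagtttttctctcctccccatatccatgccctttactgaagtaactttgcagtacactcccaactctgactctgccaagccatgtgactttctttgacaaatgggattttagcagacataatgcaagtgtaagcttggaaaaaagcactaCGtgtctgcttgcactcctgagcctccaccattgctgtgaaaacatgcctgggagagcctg
LINC00882 held 33 CG dinucleotides, LINC02570 held 6 and LINC02473 held 1. None of the 4 motifs was found in these 3 windows.

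Other noncoding genes were counted in the same way. Of the 562 other lincRNA genes, 4 rose and 12 fell in SMARCA4 knockdown, or 2.85%, and 0 passed in the other 3 knockdowns. The sum of 16 became 4 and 3 without shLUC replicate 1 and 2, 6 without shSMARCA4 replicate 2, 10 without shMAFK replicate 1, and 29 and 27 without shKDM1A replicate 1 and 2. The difference in share between LINC genes and the others was not tested. Of 25 well-known long noncoding RNAs without a LINC name, 12 were in the table and 2 of them fell in SMARCA4 knockdown. MEG3, an imprinted RNA, read 388 and 475 in shLUC, 120 and 106 in shSMARCA4 and 656 and 728 in shMAFK (adjusted p = 0.000782 in SMARCA4 knockdown). Like LINC00698, it was lowest in the SMARCA4 and highest in the MAFK libraries. MIAT read 6578 and 7917 in shLUC and 2296 and 2842 in shSMARCA4 (adjusted p = 0.00478). Of 24 nuclear RNA decay factors, among them the exosome subunits and the helicase MTREX, 22 were in the table and 0 passed in any of the 4 knockdowns; their median log2 change in SMARCA4 knockdown was -0.08.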

How the data were processed

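The authors deposited whole-number scores per row and library, called normalized tag counts here; they are normalized, since 80.3% of ranks carry an identical value across the 10 libraries, so read depth is unknown and no counting interval is given. STAR, STARsolo and hg38 are named in the submitters' processing notes; the annotation, the normalization and strand use are not given in the sources used here. Columns not mapped to a sample numbered 0.

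Values were tested as log2(value + 1) with limma 3.58.1 in R 4.3.3 (eBayes with a trend, two-sided), in 1 fit of 10 libraries with 5 residual degrees of freedom. A minimum mean of 10 removed 0 rows. Benjamini-Hochberg adjustment covered all 14785 rows, at a threshold of 0.05; fold changes on this scale understate those of low genes. The 4 knockdowns were compared by a moderated F-test. With 2 libraries a group, p-values measure the spread between these duplicates. The fit was run on simulated data in which each row had the same spread in every group. Unequal spread between groups, as seen in shKDM1A, was therefore not tested.

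Positions are from GENCODE 29 (GRCh38), and promoters from RefSeq (GRCh38.p14). Of the 137 genes, 25 overlap an annotated gene on the same strand and 46 on the other, so reads may be shared. Named LINC genes were those past the threshold, the 3 largest rises and falls per knockdown with an unadjusted p under 0.05, a group mean of 50 or more on the higher side and libraries apart from those of shLUC, the 10 highest, the 5 smallest F-test p, the 5 most and 5 least variable, and those with described roles. Members and lists were chosen with earlier results of these data known. Alternatives covered the pseudocount, filters, scaling, variance model, libraries and the replicate number. They are not independent of each other. The fit without a filter on the mean equals the main fit, and rescaling changed little, since the values were already normalized (size factors 0.9905 to 1.009). Tables and plots were made with Python 3.11.15, pandas 2.3.3 and matplotlib 3.10.9.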

Additional observations from a re-analysis of the deposited data

How the results depend on the processing

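The count of LINC genes past the threshold ranged from 1 to 11 in SMARCA4 knockdown when single libraries were left out, from 0 to 2 in MAFK, 0 to 0 in E2F6, 0 to 27 in KDM1A knockdown, and from 5 to 46 in the F-test. In MAFK knockdown it was 1 without the variance trend, 2 without both shKDM1A libraries and 6 with group weights, and in KDM1A knockdown 1 without the trend. In the F-test it was 6 with only the groups compared and 21 without both shKDM1A libraries. Most pairs of groups shared no deviation by replicate number: 2 of 10 had a correlation of deviations over 0.1, with a range from -0.0503 to 0.337. The 2 were shE2F6 with shSMARCA4, at 0.337, and shLUC with shMAFK, at 0.106. With the replicate number as a block, 7 LINC genes passed in SMARCA4 knockdown, 0 in each other knockdown and 11 in the F-test. Restricted to genes never below 10, a choice made after seeing the data, 8 passed in SMARCA4 knockdown and 11 in the F-test.

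The Spearman correlation across neighbour pairs was 0.152 in SMARCA4 and 0.186 in KDM1A knockdown within 1000 kb, and 0.316, 0.429 and 0.468 in MAFK, E2F6 and KDM1A knockdown within 10 kb. With single libraries left out it ranged from 0.225 to 0.347 in SMARCA4, 0.0419 to 0.168 in MAFK, 0.102 to 0.311 in E2F6 and 0.0376 to 0.328 in KDM1A knockdown. Over 33 changes of named genes, 640 alternative values were computed: 577 kept direction and side of the threshold, 47 lost the threshold, 16 gained it and 0 turned direction. Most of the 33 changes were not past the threshold in the main fit and could not lose it. All 47 losses fell on the 9 genes called in SMARCA4 knockdown, with 12 for LINC02387, 11 for LINC00491 and 0 for LINC00698. The pooled count of 577 is thus no measure of how stable those 9 calls were. The depth of the libraries is unknown, so its limit on low genes was not computed.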
